A study of Nothobranchius furzeri with 15 samples.

Results

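In the skin of the turquoise killifish, Nothobranchius furzeri, 122 of 26739 genes had their lowest levels in the samples given 150 pM rotenone. A gene belonged to this set when its highest level in the 5 samples at 150 pM lay below its lowest level in all 10 other samples. Levels are CPM, the count of a gene relative to its library total, with TMM factors, which scale each library by the bulk of its genes. The mean over the 15 samples had to reach 1 CPM, and the 100 genes with the highest mean in the solvent group were left out, so that 16402 genes could qualify. The set was thus chosen by the levels at 150 pM themselves, and the deficit at that dose is a description that supports nothing further.

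The killifish is a fish of short lifespan used in research on ageing, and the 15 samples were from GRZ males 9 weeks of age, GRZ being an inbred laboratory strain. There were 5 samples with the solvent dimethyl sulfoxide (DMSO), 5 with 15 pM rotenone and 5 with 150 pM rotenone. Replicates are numbered 1 to 5 within a group in the order of registration. The labels do not say that each sample came from another fish, nor how long and by which route rotenone was given, so the spread behind each p-value may be partly technical.

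Rotenone blocks complex I of the mitochondrial respiratory chain, which passes electrons from NADH to ubiquinone. Fish skin is a living mucous epithelium over scales and dermis, with keratinocytes, mucus-secreting cells, pigment cells, fibroblasts and immune cells. A lower level in such a tissue sample can reflect fewer cells of a type or less RNA per cell, and these cannot be told apart in bulk RNA. The deposited tables identify genes by numbered identifiers only, and 0 of the 26739 identifiers matched the 38438 genes of the RefSeq table used here. No gene is therefore named, no role is given, and the skin label was not checked against marker genes.

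Total counts ranged from 21857670 to 28314659 per sample. The members were well covered, and all 122 passed the filter on low counts. The lowest count of a member in any sample was 11, and the median of the members' lowest counts was 236.5. TMM factors were 0.90 to 1.10 in the 150 pM group, 0.97 to 1.14 in the DMSO group and 0.83 to 1.19 in the 15 pM group. The 20 most abundant genes of a library took 15.9% of the counts in 15 pM replicate 4 and 18.1% in 15 pM replicate 1, against 24.8% to 33.4% in the other 13 libraries. Several counts and sums that moved with 15 pM replicate 4 are given with and without it. Other values that use the 15 pM group include it.

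The members were mostly genes of middling abundance. Their mean level over the 15 samples had a median of 17.9 CPM and ranged from 1.02 to 217 CPM, while all qualifying genes had a median of 13.2 CPM. In the 10 samples without 150 pM rotenone, 6 members averaged over 100 CPM, 14 averaged under 5 CPM and the other 102 lay between. Per 1000 bases of gene length, the median member had 7.65 CPM in those 10 samples and 5.04 CPM at 150 pM. All qualifying genes had a median of 5.07 CPM per 1000 bases in those 10 samples.

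The deficit at 150 pM was modest for most members. The geometric mean at 150 pM was 0.691 of that in the other 10 samples for the median member, with quartiles of 0.608 and 0.748. On the log2 scale the difference was below -0.25 for 116 members, below -0.5 for 69 and below -1 for 10. The smallest deficit was -0.16 and the largest -4.96. The log2 fold change against DMSO had a median of -0.45, from -2.13 to -0.12, and that against 15 pM had a median of -0.59, from -8.37 to -0.11. Over all 18253 tested genes these medians were -0.0038 and -0.03. Both comparisons share the 150 pM samples.

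**Figure D1:**
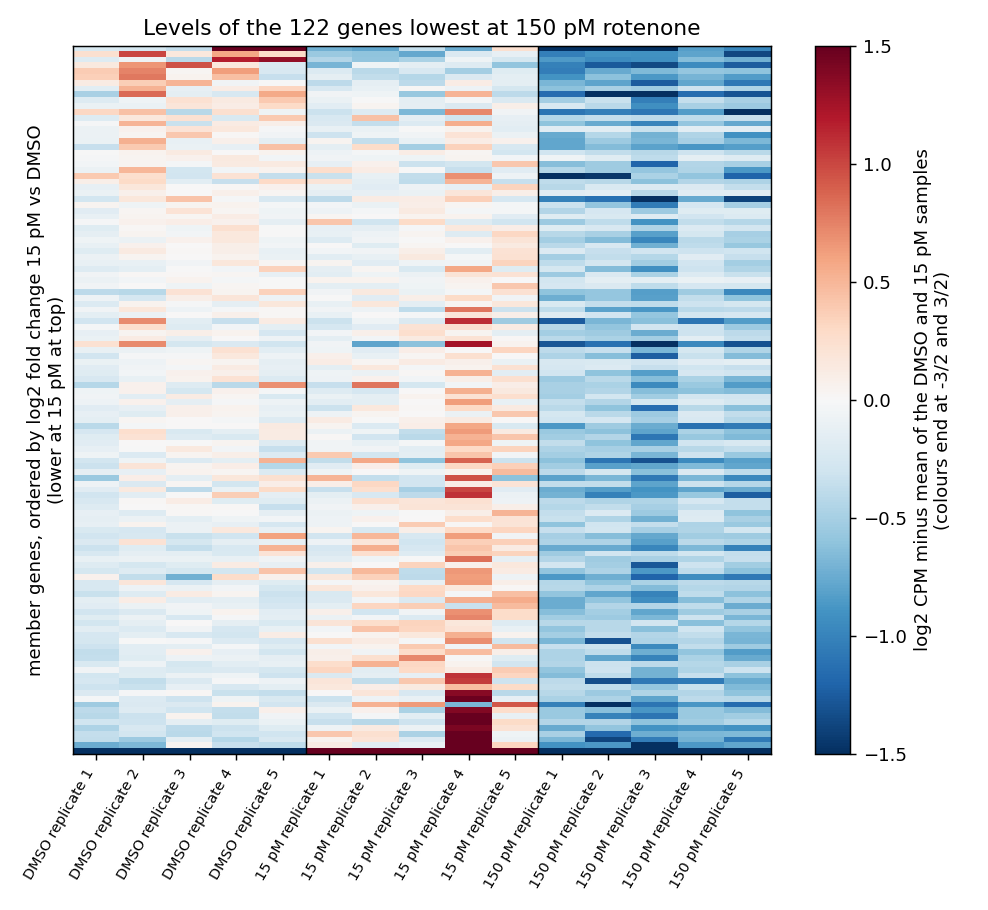
Level of each of the 122 members (rows) in each of the 15 samples (columns), as log2 CPM minus the member's mean over the DMSO and 15 pM samples; rows are ordered by the log2 fold change of 15 pM against DMSO, and the colours end at a fixed limit in both directions. The 150 pM columns are blue by construction, and among the 15 pM columns replicate 4 is the one with the strongest red rows.

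The gap that defines the set was narrow. The lowest of the other 10 samples exceeded the highest 150 pM sample by 3.53% in the median member and by 49.7% at most. The excess was over 10% for 25 members and over 20% for 5, whereas 22 members were separated by 1% or less. The narrowest member had an excess of 0.0380%, and the nearest gene outside the set one of -0.140%. The rule was missed by up to 5% by 157 qualifying genes, 18 of them by up to 1%. At the limit on abundance the lowest member averaged 1.02 CPM, and the highest gene that met the gap but missed the limit averaged 0.655 CPM. In all, 4 genes met the gap below 1 CPM, and 0 of the 100 most abundant genes met it.

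**Figure D2:**
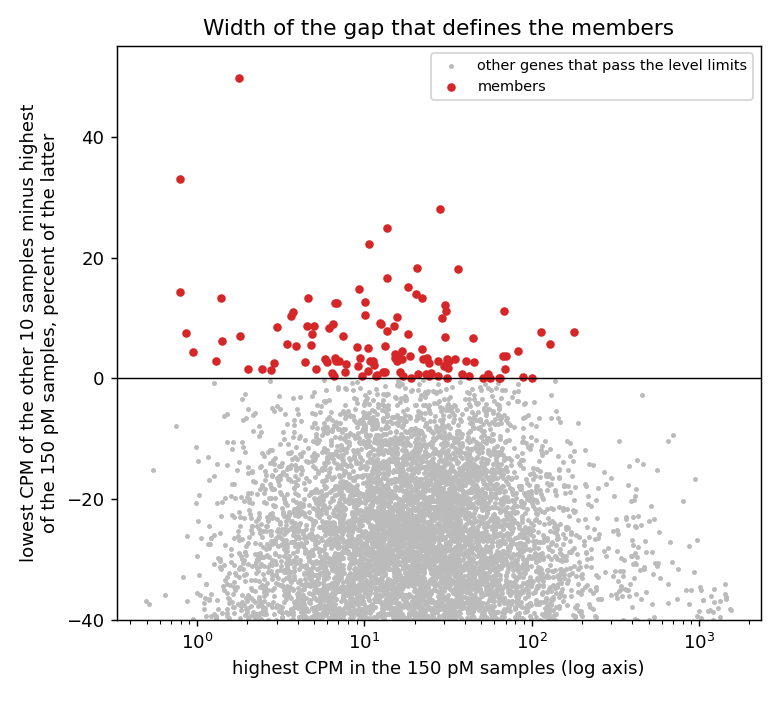
Lowest CPM of the other 10 samples minus the highest of the 150 pM samples, in percent of the latter (vertical axis), against the highest CPM of the 150 pM samples (log axis), for members (red) and other qualifying genes (grey). Most members lie just above the line at 0, and 5 exceed 20%.

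Membership depended on how the libraries were scaled. With DESeq2 size factors 106 genes met the rule, 103 of them members, and with upper-quartile factors 87 did, 86 of them members. With total counts alone 64 genes met it, and 37 of these were members. The rule was met under all 4 scalings by 32 of the 122 members, and 86 members met it whichever single sample was left out. Leaving a sample out only removes a condition, so members were lost there through the recomputed TMM factors and level limits. The 86 thus reflect scaling and do not measure how far members rest on single samples. Without 15 pM replicate 4 the rule found 135 genes, 100 of them members. Without 150 pM replicate 4 it found 270 genes, and without 150 pM replicate 1 it found 189. The former sample was the highest of its group, and so set the limit, for 53 members, whereas 150 pM replicate 3 was the lowest of its group for 72. The median deficit moved little with the scaling, from -0.50 to -0.56 on the log2 scale, while the median over all genes of at least 1 CPM moved from -0.05 to 0.0027.

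The widest gap was that of Nfu_g_1_001384, a gene of low abundance. The DMSO samples had 2.83, 7.15, 3.57, 3.35 and 5.88 CPM in replicates 1 to 5, the 15 pM samples 3.83, 3.79, 2.68, 5.62 and 3.02 CPM, and the 150 pM samples 1.79, 1.31, 1.04, 1.78 and 1.61 CPM. All 150 pM samples were thus below 2.68 CPM, the lowest of the others, while the DMSO and 15 pM samples overlapped over most of their range. The group means were 4.56 ± 1.86 CPM in DMSO, 3.79 ± 1.14 CPM at 15 pM and 1.504 ± 0.325 CPM at 150 pM (SD, n = 5). These levels came from 58 to 183 counts per sample in the other 10 samples and from 23 to 47 counts at 150 pM. Between 15 pM and DMSO, a contrast that the rule did not use directly, the log2 change was -0.27 ± 0.27 (standard error, edgeR quasi-likelihood, adjusted p = 0.596). It met the rule under all 4 scalings and, with TMM factors recomputed, whichever sample was left out.

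The difference between 15 pM and DMSO was tested next, since the rule treats these 10 samples alike. The rule did use the values of all 15 samples, and the fit takes its spread from all 3 groups. Members' p-values and standard errors may therefore be too small, and this was not tested. Most members lay close to the solvent level at the lower dose. The log2 fold change of 15 pM against DMSO was within 0.25 of 0 for 81 of the 122 members, or 66.4%, where 48.6% of all qualifying tested genes and 47.0% of all tested genes were that close. Without 15 pM replicate 4 it was so for 90 members, or 73.8%, against 49.5% of all tested genes. The rule itself can favour genes of small spread, since no sample may cross the gap. Its part in this closeness to DMSO was not tested. The SD of log2(CPM + 0.5) had a median of 0.15 in DMSO and 0.24 at 15 pM among the members, and of 0.19 and 0.40 among qualifying genes.

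By edgeR's quasi-likelihood test with Benjamini-Hochberg adjustment over 18253 genes, 2 members were called higher at 15 pM, which is 1.64% of the members, against 1.07% of all tested genes. The test called 1 member lower, 0.820% of the members, against 0.679% of all. At an unadjusted p under 0.05 there were 24 members, 19.7%, against 21.4% of all tested genes. These shares are near the background. The 15 pM and DMSO samples did not overlap for 4 members with 15 pM above, 3.28% against 3.37% of all, and for 1 member with 15 pM below, 0.820% against 2.91% of all. The number of calls moved with the method and the samples fitted, for members and for all genes, but not always together. The DESeq2 Wald test called 11 members, 9.02%, against 8.88% of all genes with an adjusted p, and limma-voom with quality weights called 14 of 122, against 10.6% of all. A fit of these 10 samples alone called 1 member, 0.820%, against 0.484% of all. The fits without DMSO replicate 2 and without DMSO replicate 4 also called 1 each, against 0.638% and 0.644% of all. Without 15 pM replicate 4 the edgeR test called 3 members, 2.46%, against a larger share of all tested genes, 4.32%.

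The small differences were unevenly signed. The log2 fold change was positive for 87 members and negative for 35, so that 71.3% lay above the solvent level, against 50.0% of all tested genes. Its median was 0.11, with quartiles of -0.02 and 0.26, against -5.53e-06 over all tested genes. A higher 15 pM mean can follow from the choice of members, because the 15 pM samples had the larger spread and all had to stay above the gap; its part in this balance was not tested. Without 15 pM replicate 4 the median was 0.04 and 73 members were positive, 59.8% against 47.6% of all tested genes. By limma-voom with quality weights the median was -0.00997 and 57 were positive, 46.7% against 46.6% of all, nearly the share of all genes by this method.

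**Figure D3:**
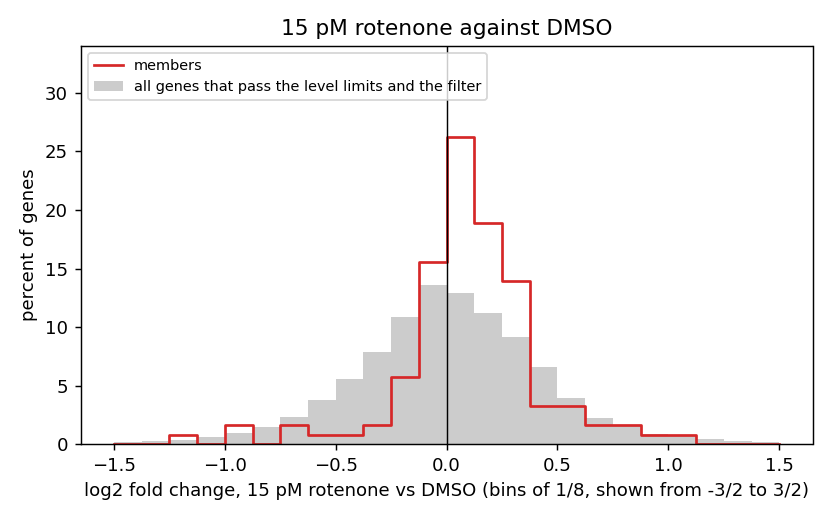
Distribution of the log2 fold change of 15 pM rotenone against DMSO (in narrow bins over the range shown) for the 122 members (red line) and for all qualifying genes that passed the filter (grey bars), in percent of genes. The members are gathered near 0 with a median of 0.11, and 1 member, at 6.68, lies outside the range shown.

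Many of the larger differences at 15 pM were highest in a single library. In 15 pM replicate 4 the median member lay 0.19 above its own group mean on the log2 scale, and 64 of the 122 members had their highest 15 pM level there. In the other 15 pM samples the median member lay between -0.13 and 0.01 of the group mean. The log2 fold change against DMSO exceeded 0.5 for 11 members, 9.02% against 11.2% of all tested genes, and in 9 of them replicate 4 was the highest 15 pM sample. Without replicate 4, 2 of the 11 stayed above 0.5, and the median of the 11 went from 0.69 to 0.33. These 2 were 1.64% of the members, against 9.80% of all tested genes over 0.5 in that fit. This library also had the smallest share of counts in its 20 most abundant genes, at 15.9%. The next smallest share was 18.1%, in 15 pM replicate 1, where the median member stood at -0.13 relative to its group mean. The part of this share of counts in these values was not tested. How often 15 pM replicate 4 was the highest of its group among all qualifying genes was not counted. Neither the 64 of 122 nor the 9 of 11 is therefore read as a trait of the members.

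The strongest exception was Nfu_g_1_007507, which was raised 103-fold in its mean CPM at the lower dose and was at its lowest at the higher one. The DMSO samples had 1.29, 4.56, 2.12, 1.71 and 1.06 CPM, the 15 pM samples 270.2, 136.8, 181.1, 262.6 and 254.3 CPM, and the 150 pM samples 0.609, 0.798, 0.678, 0.475 and 0.695 CPM. The groups did not overlap in any pair, and the order was 150 pM, DMSO, 15 pM from low to high. At 150 pM these levels rested on 12 to 22 counts per sample and in DMSO on 33 to 109 counts, so the difference between these groups rests on few counts. At 15 pM there were 3467 to 7133 counts. Against DMSO the 15 pM level differed by 6.68 ± 0.41 on the log2 scale (standard error; edgeR quasi-likelihood, adjusted p = 1.33e-06), and without 15 pM replicate 4 or any other single sample it was 6.51 to 7.15. With 444 bases it was a short gene, and at 251 CPM per 1000 bases over the DMSO and 15 pM samples it was the most abundant member per length, although its DMSO mean was 2.15 ± 1.41 CPM (SD, n = 5) and its 150 pM mean 0.651 ± 0.119 CPM. It met the rule under all 4 scalings.

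The other member called higher at 15 pM was Nfu_g_1_015374, a change far smaller in size. It had 42.9, 42.4, 48.9, 45.1 and 48.1 CPM in DMSO, 59.8, 57.3, 58.8, 73.7 and 65.2 CPM at 15 pM, and 41.3, 41.0, 35.6, 42.2 and 33.6 CPM at 150 pM. Every 15 pM sample lay above every DMSO sample, whereas the highest 150 pM sample, at 42.2 CPM, was barely under the lowest DMSO sample, at 42.4 CPM. The means were 45.5 ± 2.94 CPM, 63.0 ± 6.69 CPM and 38.8 ± 3.88 CPM (SD, n = 5). The increase over DMSO was 0.46 ± 0.10 on the log2 scale (standard error; edgeR quasi-likelihood, adjusted p = 0.0369). The call was lost in 7 of 23 alternatives, with adjusted p of 0.000336 to 0.295 over all of them. Those left out DMSO replicate 1 (0.0785), 2 (0.106), 4 (0.0779) or 5 (0.0609) or 15 pM replicate 5 (0.0531), or fitted only these 10 samples (0.0992), also with the title numbers as blocks (0.295).

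The member called lower at 15 pM was Nfu_g_1_020069, whose mean was lower at each higher dose. It had 5.01, 8.49, 4.75, 6.32 and 5.18 CPM in DMSO, 2.88, 2.80, 2.49, 3.66 and 3.91 CPM at 15 pM, and 2.09, 2.28, 2.26, 2.45 and 1.65 CPM at 150 pM. The 3 groups did not overlap, although 15 pM and 150 pM were separated only by 2.49 against 2.45 CPM. The means were 5.95 ± 1.54 CPM, 3.15 ± 0.605 CPM and 2.15 ± 0.306 CPM (SD, n = 5). Relative to DMSO the change at 15 pM was -0.92 ± 0.19 on the log2 scale (standard error; edgeR quasi-likelihood, adjusted p = 0.0285). The call was lost in 6 of 23 alternatives, with adjusted p of 0.000448 to 0.260 over all of them. Those left out DMSO replicate 2 (0.0843) or 4 (0.0776) or 15 pM replicate 1 (0.0543) or 3 (0.0650), or fitted only these 10 samples (0.0914), also with the title numbers as blocks (0.260). This gene and Nfu_g_1_015374 met the rule under neither all 4 scalings nor every omission of a sample.

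**Figure D4:**
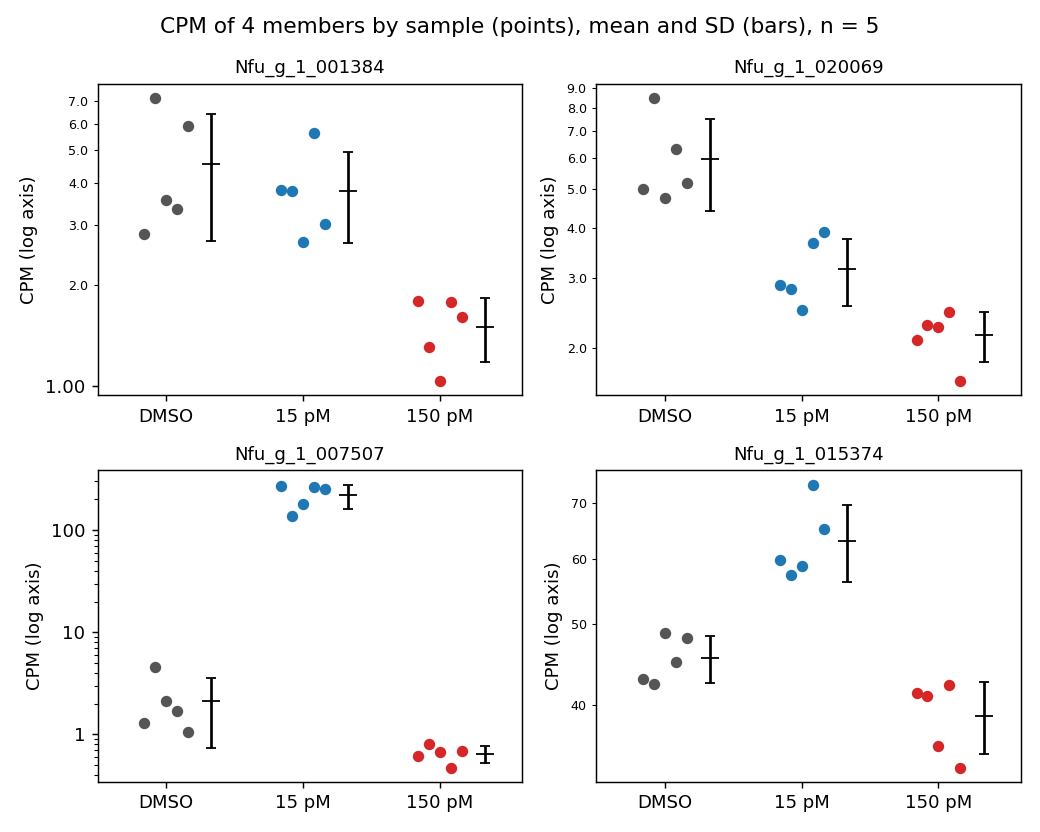
CPM of 4 members on log axes, with 1 point per sample for DMSO (grey), 15 pM (blue) and 150 pM rotenone (red); bars give the mean and SD of 5 samples. All 150 pM points lie below all others in each panel, while the 15 pM points overlap those of DMSO for Nfu_g_1_001384, lie below them for Nfu_g_1_020069 and above them for Nfu_g_1_007507 and Nfu_g_1_015374.

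The log2 fold change of 15 pM against DMSO was below -0.5 for 6 members, Nfu_g_1_020069 among them, which is 4.92% of the members against 12.9% of all tested genes. Their log2 fold changes at 15 pM were -1.20 to -0.57 and those of 150 pM against DMSO -2.13 to -1.06. Their DMSO means ranged from 3.96 to 52.1 CPM, and their 150 pM means from 0.891 to 20.3 CPM. The other 5 did not pass the test at 15 pM, with adjusted p up to 0.140 by edgeR's quasi-likelihood test. In those 5 the 15 pM samples overlapped the DMSO samples. For 2 of them DMSO replicates 4 and 5 were both more than 2 times as high as any other DMSO sample. The less abundant of these had 6.94 to 7.18 CPM in those replicates, at most 1.97 CPM in the other DMSO samples and 1.34 to 2.73 CPM at 15 pM, so that its difference rests on 2 DMSO samples. The 6 were the same without 15 pM replicate 4, and 5 of them stayed below -0.5 without DMSO replicate 2.

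The contrasts that the rule used gave 6 members called lower at 150 pM against DMSO and 42 against 15 pM by the same edgeR test. Over all tested genes 0.0438% and 0.898% were called lower in these comparisons. Since members were picked for these differences, nothing is read from either count. The counts also moved with single samples: without 15 pM replicate 4 they were 34 and 56, against 0.894% and 1.98% of all tested genes, and without 150 pM replicate 5 they were 0 and 3, against 0% and 0.146% of all. They moved with the tool as well. By the DESeq2 Wald test they were 45 and 98, against 2.14% and 4.66% of all genes with an adjusted p. By limma-voom with quality weights they were 99 and 60, against 6.65% and 4% of all.

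The same rule turned to the other groups and directions found between 50 and 161 genes. There were 50 genes highest only at 150 pM, 78 lowest and 161 highest only at 15 pM, and 93 lowest and 142 highest only in DMSO. With upper-quartile factors the genes lowest and highest at 150 pM numbered 87 and 65, and with total counts alone 64 and 11. Of the 122 members, 4 were also highest only at 15 pM, which is 3.28% of the members and 2.48% of those 161 genes. Another 1 was also highest only in DMSO, or 0.820% of the members and 0.704% of those 142 genes. These 5 are the members whose 3 groups do not overlap at all.

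Gene length, which the rule did not use directly, had a median close to that of all qualifying genes but a lower upper quartile. The length that follows from the deposited counts and RPKM had a median of 2598 bases, with quartiles of 1470 and 3603 bases, against 2838 bases with quartiles of 1434 and 4859 bases for all qualifying genes. The 50 genes highest only at 150 pM had a median of 5794 bases and quartiles of 3553 and 7874 bases. Genes lowest only at 15 pM had a median of 4253 bases, and genes highest only at 15 pM one of 2524 bases. The median was 2715 bases for genes lowest only in DMSO and 3560 bases for genes highest only in DMSO. No test was made of these lengths. In the deposited tables, 2 pairs of members stood in neighbouring rows, and 0 pairs had consecutive identifier numbers. How many such pairs other sets of this size would give was not counted, so nothing is read from these numbers. Whether the order of rows follows the genome was not given in these sources.

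**Figure D5:**
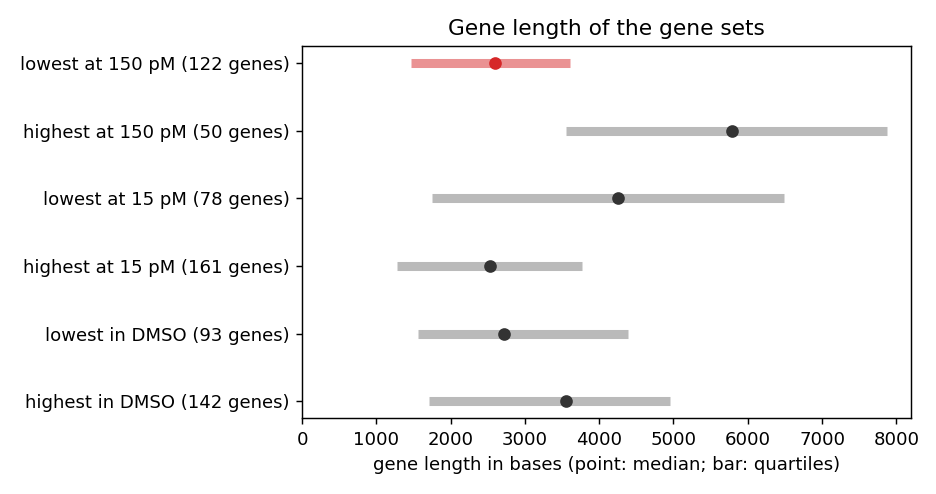
Gene length in bases as median (point) and quartiles (bar) for the members (red) and for the sets that the same rule gives in the other groups and directions (grey). The members' median of 2598 bases is close to those of the genes highest at 15 pM, 2524 bases, and lowest in DMSO, 2715 bases. It is below that of the genes highest at 150 pM, 5794 bases.

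Together the members held a small share of the RNA. They took 0.364 ± 0.0317% of the counts in DMSO, 0.424 ± 0.120% at 15 pM and 0.256 ± 0.0330% at 150 pM (SD, n = 5). Their summed level was 3262, 3770, 3551, 3580 and 3645 CPM in the DMSO samples, 3743, 3993, 3692, 5319 and 4150 CPM in the 15 pM samples, and 2649, 2598, 2294, 2771 and 2599 CPM in the 150 pM samples. The DMSO and 15 pM samples overlapped and 15 pM replicate 4 was the highest of all. Without it the 15 pM mean was 0.375 ± 0.0570% of the counts and 3895 ± 216 CPM (SD, n = 4). Without Nfu_g_1_007507 the means were 3559 ± 187 CPM in DMSO, 3958 ± 644 CPM at 15 pM (3684 ± 223 CPM without replicate 4) and 2581 ± 176 CPM at 150 pM. In some samples many members lay on the same side of their group means. At the extremes, 14 of the 122 lay above their own group mean in DMSO replicate 1, 23 in 150 pM replicate 3 and 105 in 150 pM replicate 4. The other samples had from 26, in 15 pM replicate 1, to 95, in 15 pM replicate 4. The same shares were not taken over all qualifying genes, so no trait of the members is read from these counts.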

How the data were processed

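RNA-seq libraries from total skin RNA were prepared with Illumina's TruSeq v2 chemistry, per the labels' protocols. It does not mark strand, so overlapping antisense genes cannot be separated. Per the submitters' processing notes the tools were CASAVA 1.8.2, STAR 2.4.1d and featureCounts 1.4.6-p4. The build and annotation, and how reads shared by gene copies were treated, are not given in these sources. The authors deposited raw counts per gene and RPKM values. The deposited RPKM give 1 length per gene (within 1%) only when the 15 library totals are repeated down the rows, so they mix the depths of all samples and served only for gene lengths. Counts were analysed in R 4.3.3 with edgeR 4.0.16. All 15 samples entered 1 quasi-likelihood fit with a mean per group, after filterByExpr (minimum count 10, minimum total 15; 18253 genes) and TMM scaling, with Benjamini-Hochberg adjustment and calls at adjusted p under 0.05. The rule used TMM factors over all genes. Scaling, filters, the samples fitted and the tool (DESeq2 1.42.0 or limma 3.58.1) were varied in turn, each sample was left out, and title numbers served as blocks. The 4 identified genes are the member with the widest gap and those with the smallest p for 15 pM against DMSO, 1 lower and 2 higher. The members and lists were chosen with earlier results of these data known.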

Additional observations from a re-analysis of the deposited data

Results flagged for a closer look

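Of 33 sets of 5 values checked for a sample lying far outside the others, 4 had one. Chance gives about 1 in 20 per set, but the sets share libraries and are not independent. No excess over chance is therefore read from the 4. In 15 pM replicate 4 the summed level of the members was 5319 CPM, against 3692 to 4150 CPM in the other 15 pM samples. Without Nfu_g_1_007507 that sum was 5057 CPM, against 3472 to 3896 CPM. The total count of 150 pM replicate 2 was 28314659, against 23983152 to 24878602 in the other 150 pM samples. The TMM factor of DMSO replicate 5 was 1.14, against 0.97 to 1.01 in the other DMSO samples.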

How the results depend on the processing

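The number of members was 122. It was 64 with total counts alone, and 115 to 270 when a single sample was left out; the remaining alternatives gave 87 to 126. The number of members called between 15 pM and DMSO was 3. It was 1 in a fit of these 10 samples alone, 11 by the DESeq2 Wald test, 14 by limma-voom with sample quality weights, and 1 to 4 when a single sample was left out. All tested genes called numbered 320, and 86, 1513, 1930 and 118 to 798 under the same alternatives. The 798 came without 15 pM replicate 4, where 3 members were called. The numbers in the sample titles are shared by the DMSO and 15 pM groups, but same-numbered samples deviated together with correlations of -0.26 to 0.34 across 18253 genes, and 0 of 5 samples correlated best with its own number, so the number was not taken as a pairing. With these numbers as a replicate block, 1 member was called, and 2 of all tested genes. The median log2 fold change of the members at 15 pM was 0.11; it was -0.00997 by limma-voom and 0.04 to 0.15 with a sample left out, and the cause was not tested. The alternatives for this median were chosen after seeing the data. Over all alternatives it kept its sign except by limma-voom. The median over all tested genes moved as well, from -0.041 with upper-quartile factors to 0.028 without DMSO replicate 5. By limma-voom it was -0.028, below that of the members. All 4 identified genes kept the sign of their log2 fold change at 15 pM in 23 of 23 alternatives. All but Nfu_g_1_001384 were picked for a small p in this contrast, so a kept sign was nearly fixed in advance for them. Depth limits the least abundant members, whose lowest count was 11.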
